A study of Mus musculus with 12 samples.

Results

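Chemokines are small secreted proteins that draw leukocytes along a gradient, and connective tissue cells, cartilage cells among them, release them when stimulated by inflammatory cytokines. They are sorted by the spacing of their first cysteines into CC, CXC and CX3C families, and each binds seven-transmembrane receptors on the cells it attracts. Glucocorticoids, which act through the glucocorticoid receptor, are known for lowering the transcripts of many of them. The 10 chemokine genes described here were given as a list of ligands made by chondrocyte cultures: the CC ligands Ccl2, Ccl7 and Ccl9, the CXC ligands Cxcl1, Cxcl2, Cxcl5, Cxcl10, Cxcl12 and Cxcl14, and the CX3C ligand Cx3cl1. They were found through the platform's annotation, which gave them 19 of the 34958 probe sets that carry 1 gene symbol. Of the 19, 16 were tested, having a group with a mean intensity of 50 or more. All 10 genes had a tested probe set, out of 11053 genes that did.

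The cultures were primary chondrocyte monolayers from the tibiae, femurs and humeri of CD1 mouse embryos (E15.5), and no genetic change is named for any group. DEX cultures received 100 nM of the synthetic glucocorticoid dexamethasone (DEX) for 6 or 24 hrs, and vehicle cultures received the DMSO in which DEX was dissolved. RNA of each culture was hybridized to 1 array, with 3 arrays in each of the 4 groups, numbered as replicates 1, 2 and 4, and arrays of 1 number and time make up a pair. Pairs of 1 number at 6 and at 24 hrs may come from 1 cell isolation, and they were counted as separate pairs. Values are linear GC-RMA intensities of the authors. They compare arrays for 1 probe set and not 1 probe set with another.

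The arrays had median intensities of 25.7 to 39.1, and the number of arrays limits the precision of every value. Tsc22d3, Per1 and Fkbp5, known glucocorticoid targets, were higher with DEX in 6 of 6 pairs. The 4 arrays hybridized on day 3 of 4, DEX and vehicle of replicates 1 and 2 at 6 hrs, stood apart: their 3′ control of Gapdh, a glycolytic enzyme, exceeded the 5′ control by 0.49 to 0.74 on the log2 scale, against -0.33 to -0.22 on the other 8 arrays. All 9 listed chondrocyte markers were tested, Col2a1, the main collagen chain of cartilage, among them. Of 17 macrophage markers 7 were tested (Cd68, Adgre1, Cd14, Csf1r, Fcer1g, Mrc1 and Ms4a7), and Ptprc, which all leukocytes carry, and the complement genes C1qa, C1qb and C1qc stayed under the minimum of 50. None of 8 granulocyte markers and 3 of 10 endothelial ones were tested. The cultures were measured in bulk, so that fewer cells of a type and less RNA per cell cannot be told apart.

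With DEX, Ccl2 and Cxcl5 fell, Ccl2 to 29.7% and Cxcl5 to 27.0% of the vehicle level over both times. The fit was made with limma, with 1 mean per group and no block, and p-values were adjusted (Benjamini-Hochberg) across the 20897 probe sets that were tested. Log2 fold changes were -1.75 (SE 0.25, adjusted p = 0.0078) for Ccl2 and -1.89 (SE 0.24, adjusted p = 0.0039) for Cxcl5. Thus 2 of 10 chemokine genes were called lower and 0 higher over both times, where 0.217% of all genes tested were called lower. All of the 10 but Ccl9 are among the cytokine transcripts that the authors, from these same arrays, listed as enriched in vehicle. Lower values of the list were therefore known beforehand, and the shares of all genes, here and below, are a scale and no test of the list. At 6 hrs Ccl2 was the 1 gene called (0.0362% of all genes were called lower at 6 hrs), and at 24 hrs Cxcl5 was the 1 gene called (0.0362% at 24 hrs). At an unadjusted p under 0.05, 8 of the 10 were lower over both times (2.94% of all genes). All 10 had a log2 fold change below 0 over both times and at each time, with a median of -0.77 over both times, -0.94 at 6 hrs and -0.80 at 24 hrs, against -0.018, -0.0077 and -0.029 over all genes tested.

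Same-numbered DEX and vehicle arrays deviated together from their group means, so the comparison was also made with the pairs as a block. Then 7 of 10 chemokine genes passed over both times, all lower with DEX (Ccl2, Ccl7, Cxcl2, Cxcl5, Cxcl12, Cxcl14 and Cx3cl1), where 1.47% of all genes were called lower. Cxcl2 is among the 7 although it met the minimum of 50 only in vehicle at 6 hrs, a group in which it was high, so that its call is no support for a fall. Of the other 9 genes 6 passed. The block called 4 of 10 at 6 hrs (Ccl2, Ccl7, Cxcl5 and Cx3cl1, with 0.326% of all genes called lower) and 3 of 10 at 24 hrs (Ccl2, Cxcl5 and Cxcl14, with 0.796%). The same 7 genes, Cxcl2 among them, were lower in 6 of 6 pairs, which was so for 5.11% of all genes. The other 3, Ccl9, Cxcl1 and Cxcl10, were lower in 5 of 6. All DEX arrays lay below all vehicle arrays for 6 of 10 at 6 hrs (3.37% of all genes) and for 5 of 10 at 24 hrs (11% of all genes). The 5 include Cxcl2, whose means at 24 hrs lay under 50 in both groups. Its place in these counts is no support for a fall either.

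**Figure D1:**
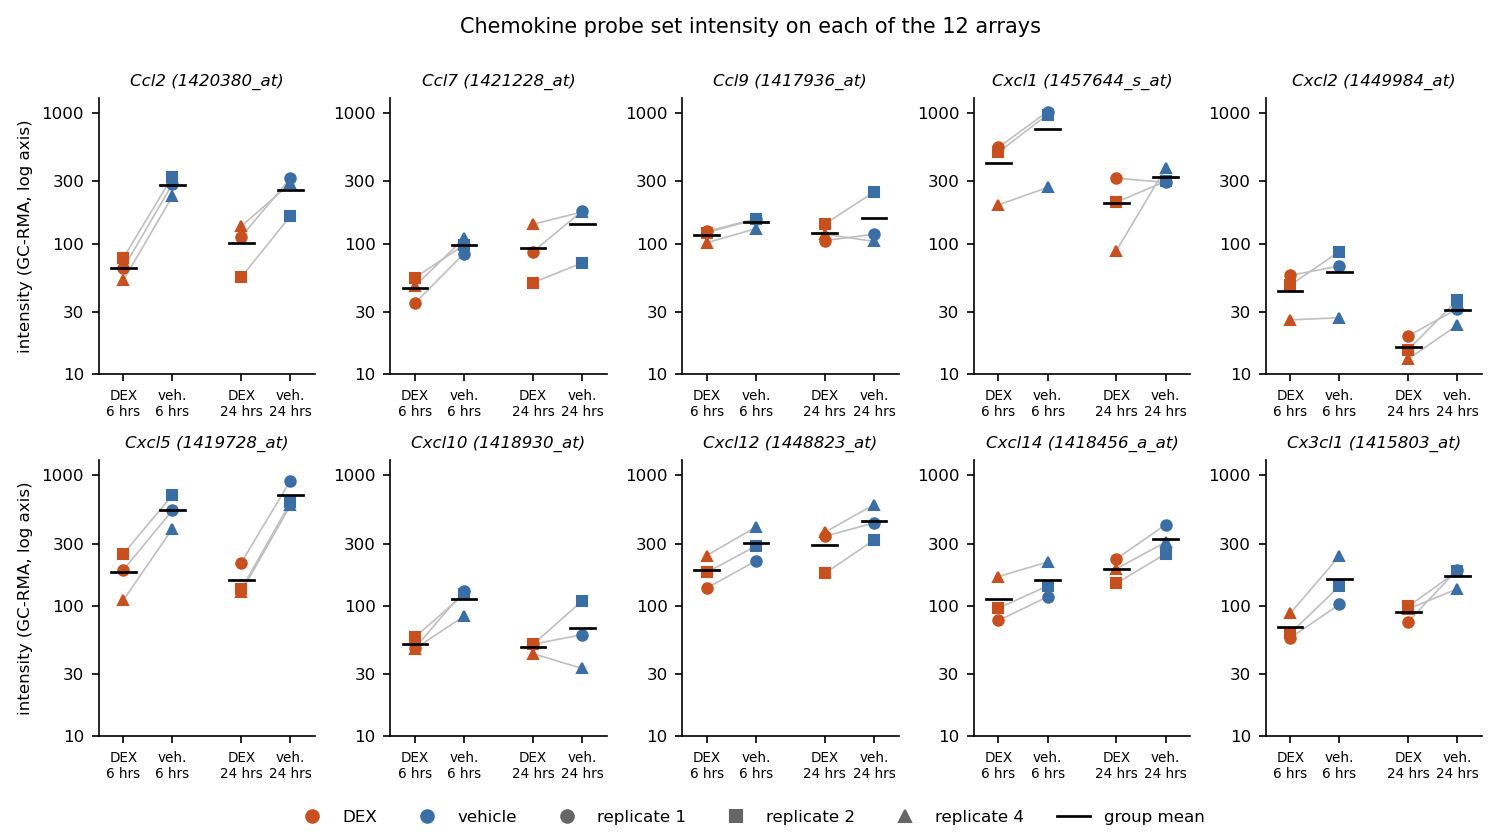
Intensity (log axis) of the probe set that represents each of the 10 chemokine genes, on each of the 12 arrays, with DEX left of vehicle at 6 hrs and at 24 hrs. Symbols are replicate numbers, grey lines join the arrays of a pair and black bars are group means; all lines of Ccl2 and Cxcl5 rise toward vehicle, and those of Ccl9 at 24 hrs run both ways.

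Ccl2 and Ccl7 are monocyte attractants that signal through the receptor Ccr2. Both lie side by side on mouse chromosome 11 in the order Ccl2, Ccl7, Ccl11, Ccl12, Ccl8 (RefSeq, GRCm38.p6). At 6 hrs the intensity of Ccl2 was 64.6, 77.5 and 52.3 in DEX replicates 1, 2 and 4, against 287, 327 and 231 in vehicle. In the 24 hrs cultures it was 113, 55.5 and 136 with DEX, against 317, 163 and 289.7 with vehicle. The groups did not overlap at either time, and both 24 hrs arrays of replicate 2 were the lowest of their groups. Within pairs the log2 difference, DEX minus vehicle, was -2.15, -2.07 and -2.14 at 6 hrs and -1.48, -1.55 and -1.09 at 24 hrs. The fitted value at 6 hrs was -2.12 (log2, SE 0.35, adjusted p = 0.0425). At 24 hrs it was -1.38 (SE 0.35), with an adjusted p of 0.248 without a block and 0.0037 with the pairs as a block. The difference between the 2 times was 0.75 (SE 0.50, adjusted p = 1.00).

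The call of Ccl2 at 6 hrs without the block rested on the full set of arrays. It was kept without DEX or vehicle replicate 2 at 24 hrs and lost without any other single array (adjusted p 0.0209 to 0.190 over the 12 omissions). It was also lost with no minimum intensity, with quantile normalization and with only the 6 hrs arrays in the fit. Over both times Ccl2 passed in 12 of 12 omissions, and without the 4 arrays of day 3 its log2 fold change was -1.76 (adjusted p = 0.122; 1.4e-05 to 0.122 over all alternatives).

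Ccl7 had an intensity of 35.1, 54.9 and 47.5 in DEX replicates 1, 2 and 4 at 6 hrs, against 84.1, 97.9 and 109.9 in vehicle, with no overlap. With DEX at 6 hrs Ccl7 had a mean of 45.8, under the minimum of 50, so that background limits the size of its fold there. After 24 hrs of DEX it had 86.9, 50.4 and 141, against 178, 71.2 and 175 with vehicle, and here the groups overlapped, with replicate 2 the lowest of each. Its log2 fold change over both times was -0.86 (SE 0.29), with an adjusted p of 0.506 without a block and 0.00995 with the pairs as a block. At 6 hrs alone it was -1.10 (adjusted p = 1.00 without and 0.0345 with the block), and at 24 hrs -0.61 (adjusted p = 0.121 with the block).

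Ccl9, a myeloid attractant of rodents that signals through Ccr1, was the chemokine whose difference was the smallest of the 10. It had 124, 121 and 102 in DEX replicates 1, 2 and 4 at 6 hrs, against 155, 154 and 130.4 in vehicle. With DEX for 24 hrs it had 106, 141 and 118, against 118, 249 and 104 with vehicle. The groups were apart at 6 hrs and overlapped at 24 hrs, where vehicle replicate 2 was high. Over both times Ccl9 had a log2 fold change of -0.30 (SE 0.20, adjusted p = 1.00, and 0.335 with the block), and a second probe set gave -0.20 (SE 0.47), with 3 of 6 pairs lower with DEX.

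Cxcl1, Cxcl2 and Cxcl5 carry the Glu-Leu-Arg motif and draw neutrophils through the receptor Cxcr2. All 3 lie in 1 stretch of mouse chromosome 5, in which the protein-coding genes Cxcl5, Ppbp, Pf4, Cxcl3, Cxcl15, Cxcl1 and Cxcl2 follow one another (RefSeq, GRCm38.p6). Cxcl5 had the largest difference of the 10 genes over both times. At 6 hrs its intensity was 188, 250.1 and 110.2 in DEX replicates 1, 2 and 4, against 538, 704 and 389.8 in vehicle. With 24 hrs of DEX it was 214, 134 and 128, against 911, 621 and 589 with vehicle. Every DEX array lay below every vehicle array, across the times as well as within them. The log2 difference was -1.52, -1.49 and -1.82 in the pairs at 6 hrs and -2.09, -2.21 and -2.20 at 24 hrs.

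For Cxcl5 at 6 hrs the fitted log2 fold change was -1.61 (SE 0.34), with an adjusted p of 0.167 without and 0.0016 with the block. At 24 hrs it was -2.17 (SE 0.34, adjusted p = 0.0290). The difference between the times was -0.56 (SE 0.48, adjusted p = 1.00). At 24 hrs the call without the block was lost in 8 of 12 omissions of 1 array (adjusted p 0.0094 to 0.179) and kept without replicate 2 or 4 of DEX or of vehicle at 6 hrs, and it was lost with no minimum intensity. Over both times Cxcl5 passed in 12 of 12 omissions and without day 3 (log2 fold change -2.00, adjusted p = 0.0138; 1.3e-04 to 0.0221 over all alternatives).

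Cxcl1 was read by 3 tested probe sets, which did not give 1 answer. The set with the highest mean, 1457644_s_at, had 546, 502 and 198 in DEX replicates 1, 2 and 4 at 6 hrs, against 1029.6, 976 and 269.6 in vehicle. The 24 hrs values were 318, 208 and 88.7 with DEX, against 294, 301 and 380.3 with vehicle. The groups overlapped at both times, and both 6 hrs arrays of replicate 4 were far below those of replicates 1 and 2, which belong to day 3. Its log2 fold change over both times was -0.81 (SE 0.42, adjusted p = 1.00, and 0.188 with the block). In the manufacturer's naming the ending s marks oligonucleotides shared between transcripts and the ending x those close to other sequences, so that Cxcl1 and its near relatives may not be separate in these sets.

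The set with neither ending, 1419209_at, had 399, 323 and 143 in DEX replicates 1, 2 and 4 at 6 hrs, against 815, 728 and 372 in vehicle. At 24 hrs this set had 212, 188 and 124 with DEX, against 486, 448 and 305 with vehicle. The groups were apart at 24 hrs and overlapped at 6 hrs, while the 6 pair differences were alike, at -1.38 to -1.03. Its log2 fold change over both times was -1.22 (SE 0.29, adjusted p = 0.131), and with the pairs as a block the adjusted p was 4.7e-04. The third set, 1441855_x_at, gave -0.90 (SE 0.18, adjusted p = 0.0611, and 0.0413 with the block) and had no overlap at either time.

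Cxcl2 lay under 50 in both groups at 24 hrs. At 6 hrs it had 57.1, 48.1 and 26.1 in DEX replicates 1, 2 and 4, against 67.5, 87.1 and 27.1 in vehicle. Its 24 hrs intensities were 19.6, 15.4 and 13.1 with DEX, against 31.7, 37.0 and 23.8 with vehicle. The groups overlapped at 6 hrs, where both arrays of replicate 4 were low, and not at 24 hrs. It was tested only through vehicle at 6 hrs (mean 60.6), and DEX at 6 hrs (43.7) and both groups at 24 hrs (16.04 with DEX and 30.8 with vehicle) lay under the minimum. Its fitted log2 value over both times, -0.66 (SE 0.30, adjusted p = 0.882, and 0.0415 with the block), rests on that group and on signals near background.

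The promoters of Cxcl1 and Cxcl2 are shown because both genes are known targets of NF-kB, a transcription factor of inflammation. In the sets that stand for them, both were high on the arrays of replicates 1 and 2 at 6 hrs, which are those of day 3. An effect of the day therefore cannot be told apart from a shared rise. The third set of Cxcl1 did not follow with DEX. At 6 hrs it had 211, 164 and 259 in DEX replicates 1, 2 and 4, against 453, 431 and 281 in vehicle. Each line gives the 120 bases before the gene's start, 5′ to 3′ on the gene's strand, from RefSeq (GRCm38.p6), and capitals mark matches to the 10-base NF-kB consensus, searched on both strands. Cxcl1 is on the plus strand at chr5:90891125-90891244 and Cxcl2 on the plus strand at chr5:90903779-90903898.
Cxcl1: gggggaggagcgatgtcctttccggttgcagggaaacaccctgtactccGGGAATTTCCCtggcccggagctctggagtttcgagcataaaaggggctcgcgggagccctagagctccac
Cxcl2: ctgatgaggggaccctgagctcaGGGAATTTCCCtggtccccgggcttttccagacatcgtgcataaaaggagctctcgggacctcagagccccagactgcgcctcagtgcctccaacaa
In each the capitals are 2 overlapping matches, 1 on either strand, and the same 11 letters stand in both promoters. In Cxcl1 they begin 71 bases before the start and in Cxcl2 97 bases before it.

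Promoter windows were at hand for 7 of the 10 genes (Ccl9, Cxcl1, Cxcl2, Cxcl10, Cxcl12, Cxcl14 and Cx3cl1), and the 250 bases before each start were searched on both strands. The NF-kB consensus was found in 4 of the 7 (Ccl9, Cxcl1, Cxcl2 and Cxcl10), and in 7.25% of all 32851 windows of that length. The palindromic glucocorticoid response element GNACANNNTGTNC was found in 0 of the 7 and in 0.387% of all windows. The AP-1 site TGANTCA was found in Ccl9 and Cxcl10 and in 6.75% of all windows. A match is a stretch of letters and not a binding site, and matches of different motifs did not overlap in these windows.

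Cxcl10, the ligand of Cxcr3 that draws activated T cells, is known as an interferon target with NF-kB sites. Its promoter is shown because it held 3 of the 4 motifs. The line gives the 220 bases before its start on the minus strand, at chr5:92348890-92349109 (GRCm38.p6, RefSeq), with all matches in capitals.
Cxcl10: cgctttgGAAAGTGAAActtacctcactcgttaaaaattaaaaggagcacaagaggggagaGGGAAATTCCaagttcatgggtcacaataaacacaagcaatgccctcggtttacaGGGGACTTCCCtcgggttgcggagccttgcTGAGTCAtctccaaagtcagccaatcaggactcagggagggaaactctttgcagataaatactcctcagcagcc
From the 5′ end the capitals are the interferon response element core (GAAA and GAAA with 2 bases of any kind between them), which 2.98% of all windows held, an NF-kB match, 2 overlapping NF-kB matches and an AP-1 match. The interferon core was also found in the window of Cxcl14.

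The intensity of Cxcl10 at 6 hrs was 47.5, 57.6 and 47.0 in DEX replicates 1, 2 and 4, against 131, 123 and 83.4 in vehicle, with no overlap. At 24 hrs Cxcl10 had 50.8, 50.6 and 43.0 with DEX, against 60.0, 109 and 33.1 with vehicle, and the groups overlapped. The DEX arrays varied little, and the vehicle arrays of 24 hrs held both the highest and the lowest value of that time. The fit gave Cxcl10 -1.13 at 6 hrs (log2, SE 0.36), with an adjusted p of 0.752 without and 0.142 with the block. For 24 hrs it gave -0.32 (SE 0.36, adjusted p = 1.00). Without vehicle replicate 2 at 24 hrs the 24 hrs value was 0.11. Of 16 other genes of the interferon response, 3 were tested and 0 passed in any of the 3 comparisons with DEX, without or with the block.

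Cxcl12 and Cxcl14 are made by resting tissue. Cxcl12 holds blood progenitors in the bone marrow through the receptor Cxcr4, and Cxcl14 is a mucosal and skin chemokine. Cxcl12 was read by 2 tested probe sets. The set with the higher mean, 1448823_at, had 137, 180.1 and 242 in DEX replicates 1, 2 and 4 at 6 hrs, against 221, 287 and 401 in vehicle. In 24 hrs cultures it had 340.2, 177 and 366 with DEX, against 432, 319 and 595 with vehicle. The groups overlapped at both times, yet DEX was lower in each of the 6 pairs, with log2 differences of -0.85 to -0.34. Over both times this set had a log2 fold change of -0.66 (SE 0.25, adjusted p = 0.620, and 0.0094 with the block).

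The other set of Cxcl12, 1417574_at, passed without a block. It had 174, 224 and 162 in DEX replicates 1, 2 and 4 at 6 hrs, against 325, 417 and 371 in vehicle. Its 24 hrs values were 175, 114 and 187 with DEX, against 364, 319 and 420.4 with vehicle. The groups were apart at both times, and the log2 fold change over both was -1.12 (SE 0.16, adjusted p = 0.0075). The remaining set of Cxcl12 stayed under 50 and was not tested. All 16 tested probe sets of the 10 genes had a log2 fold change below 0 over both times.

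Cxcl14 had 77.2, 96.1 and 168 in DEX replicates 1, 2 and 4 at 6 hrs, against 117, 142 and 217 in vehicle. At 24 hrs Cxcl14 had 229, 149 and 192 with DEX, against 419, 250.2 and 308 with vehicle. The groups overlapped at 6 hrs and not at 24 hrs. The fit gave Cxcl14 -0.51 at 6 hrs (log2, SE 0.33), with an adjusted p of 1.00 without and 0.114 with the block. For 24 hrs it gave -0.77 (SE 0.33), with an adjusted p of 0.762 without and 0.0194 with the block. Its second probe set was lower in 6 of 6 pairs as well, with a log2 fold change over both times of -0.90 (SE 0.32, adjusted p = 0.537, and 0.0613 with the block).

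Cx3cl1, or fractalkine, is anchored in the membrane on a mucin stalk, is shed by proteases and acts on the receptor Cx3cr1 of monocytes and microglia. It had 56.6, 61.5 and 87.6 in DEX replicates 1, 2 and 4 at 6 hrs, against 102, 141 and 240.0 in vehicle. At 24 hrs Cx3cl1 had 75.6, 98.9 and 94.6 with DEX, against 189.6, 184 and 135 with vehicle. The groups did not overlap at either time, and DEX was lower in 6 of 6 pairs. Over both times the fold change was -1.04 on the log2 scale (SE 0.21), with an adjusted p of 0.0589 without a block and 0.0069 with it. The threshold was also passed without day 3 (-1.18, adjusted p = 0.0360), without DEX replicate 4 at 6 hrs, without vehicle replicate 1 at 6 hrs (adjusted p 0.0310 to 0.188 over the 12 omissions), with a minimum intensity of 100 and with quantile normalization (0.0021 to 0.444 over all alternatives). A second tested set, 1415804_at, gave -1.15 (SE 0.61, adjusted p = 1.00, and 0.0217 with the block), and its lowest arrays were those of day 3, with 6.63 and 11.1 in DEX and 14.2 and 21.2 in vehicle. The remaining 2 sets of Cx3cl1 stayed under 50, with pair differences of both signs.

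**Figure D2:**
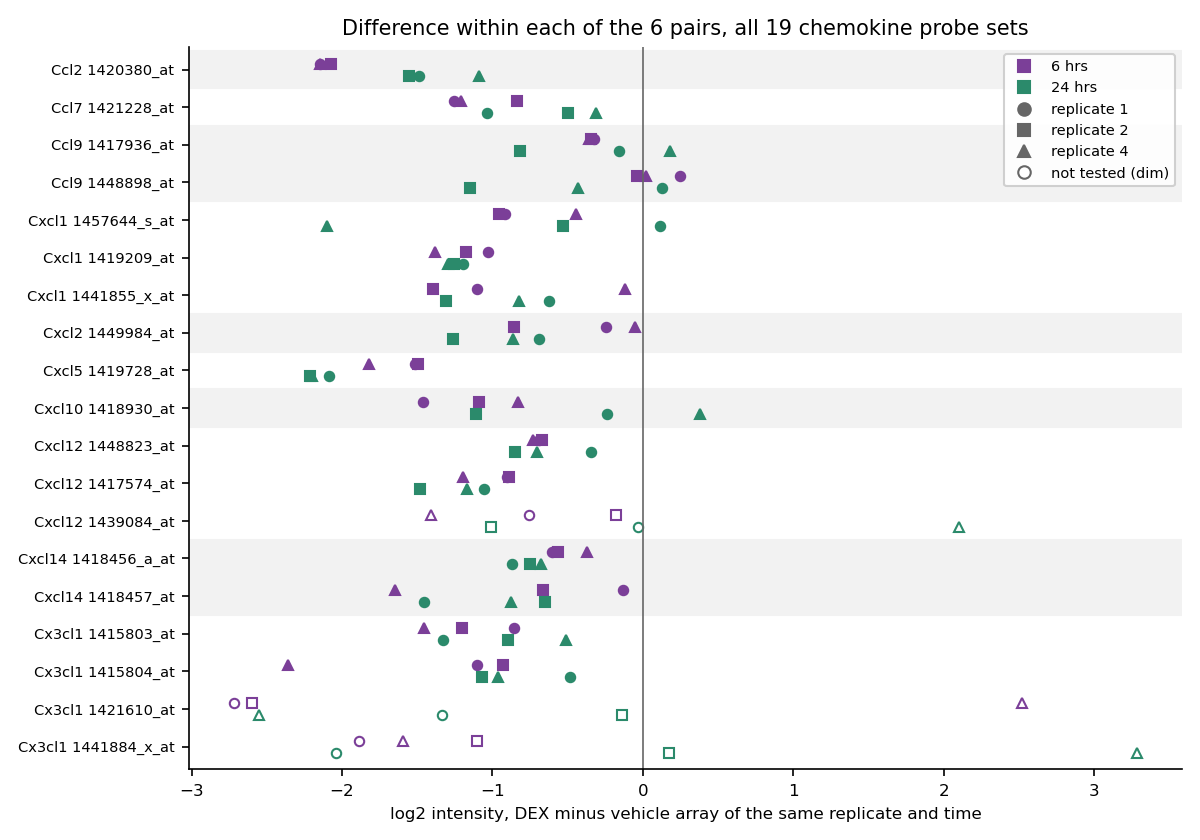
Difference of log2 intensity between the DEX and the vehicle array of each of the 6 pairs (horizontal axis), for all 19 probe sets of the 10 genes, with 6 hrs in purple, 24 hrs in green and symbols for replicate numbers. Open symbols are the 3 sets that stayed under 50 and were not tested; of the 16 tested sets 12 lay below 0 in all 6 pairs, and the 4 that did not were both sets of Ccl9, that of Cxcl10 and 1457644_s_at of Cxcl1.

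**Figure D3:**
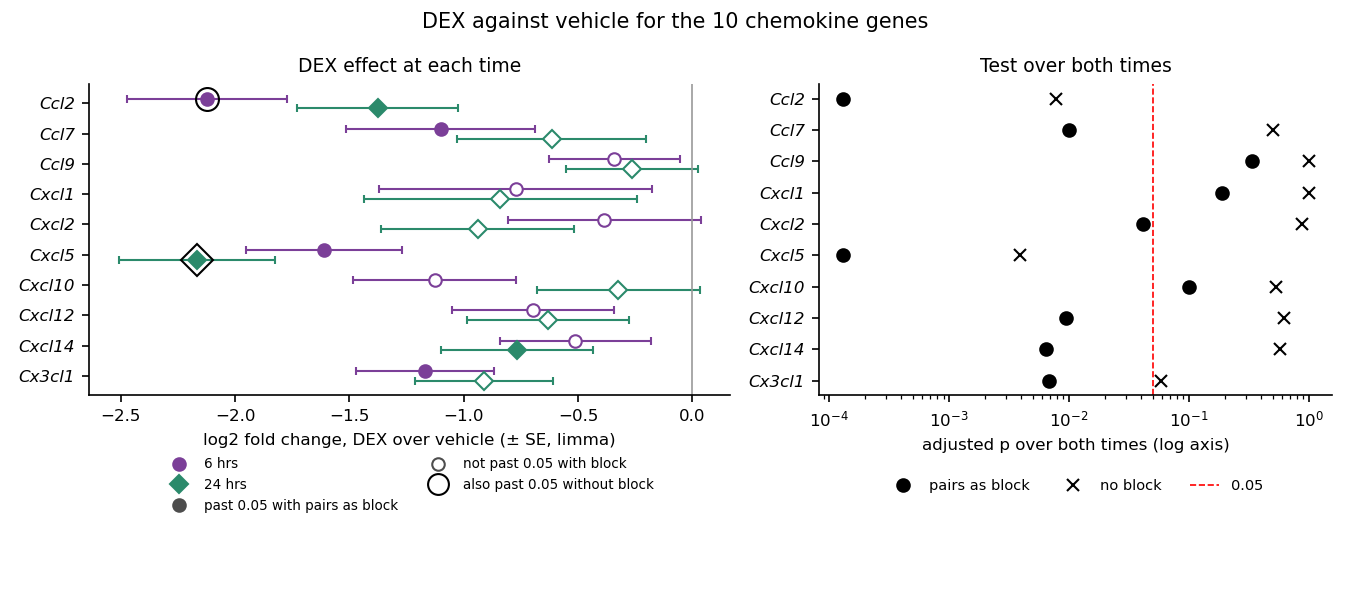
Left, log2 fold change of DEX over vehicle with its standard error at 6 hrs and 24 hrs for each of the 10 genes, filled where the limma fit with pairs as a block passed an adjusted p of 0.05 and ringed where the fit without a block did. Right, adjusted p over both times (log axis) in both fits; crosses of Ccl2 and Cxcl5 alone lie left of 0.05, and 7 of the dots do.

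For 0 of the 10 genes did the DEX effect differ between 24 and 6 hrs, as was so for 0% of all genes (limma; at an unadjusted p under 0.05 there were 0 of the 10 without the block, where 3.3% of all genes passed, and 2 with the block, where 11.7% did). The differences, 24 minus 6 hrs, ran from -0.56 (SE 0.48) in Cxcl5 to 0.80 (SE 0.50) in Cxcl10. With 3 arrays per group, differences of that size did not pass, which does not show that the effects at the 2 times were alike.

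Between vehicle cultures of 24 and 6 hrs 0 of the 10 genes passed, where 0.00905% of all genes did (limma; 2 of 10 at an unadjusted p under 0.05, against 31.3% of all genes). Over the probe sets that stand for the genes, the largest differences, 24 over 6 hrs, were those of Cxcl14 (1.05, SE 0.33, adjusted p = 0.0953) and Cxcl1 (-1.0, SE 0.60, adjusted p = 0.254). Other sets of a gene did not always follow, with -0.58 and 0.024 in the other 2 sets of Cxcl1, 1.78 (SE 0.86) in 1415804_at of Cx3cl1 and 1.29 (SE 0.67) in the second set of Ccl9. Cxcl14 had 419, 250.2 and 308 in vehicle at 24 hrs, against 117, 142 and 217 at 6 hrs, with no overlap. In the second set of Cxcl14 the difference was 0.67 (SE 0.45). There the groups overlapped, with 412, 207 and 289 at 24 hrs, against 111, 129 and 423 at 6 hrs. No day held both times, so that day and time cannot be told apart. Cxcl14 passed without DEX replicate 4 at 6 hrs. Cxcl1, Cxcl2 and Cxcl14 passed without vehicle replicate 4 at 6 hrs, an omission that left vehicle arrays of day 3 alone at 6 hrs. Without day 3 the values of Cxcl1 and Cxcl2 were 0.26 and 0.16.

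DEX and vehicle shared each hybridization day, so the difference was also taken within days. The log2 difference of Ccl2 was -2.11 on day 3 and -2.14 on day 4, both at 6 hrs, and -1.55 on day 1 and -1.29 on day 2, both at 24 hrs. That of Cxcl5 was -1.50 on day 3, -1.82 on day 4, -2.21 on day 1 and -2.14 on day 2. Days 2 and 3 held 2 pairs and the others 1, and within 2 pairs neither gene passed (adjusted p 0.0601 to 0.240, limma). The other 8 genes were below 0 on every day, apart from Ccl9 (0.011) and Cxcl10 (0.069) on day 2.

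**Figure D4:**
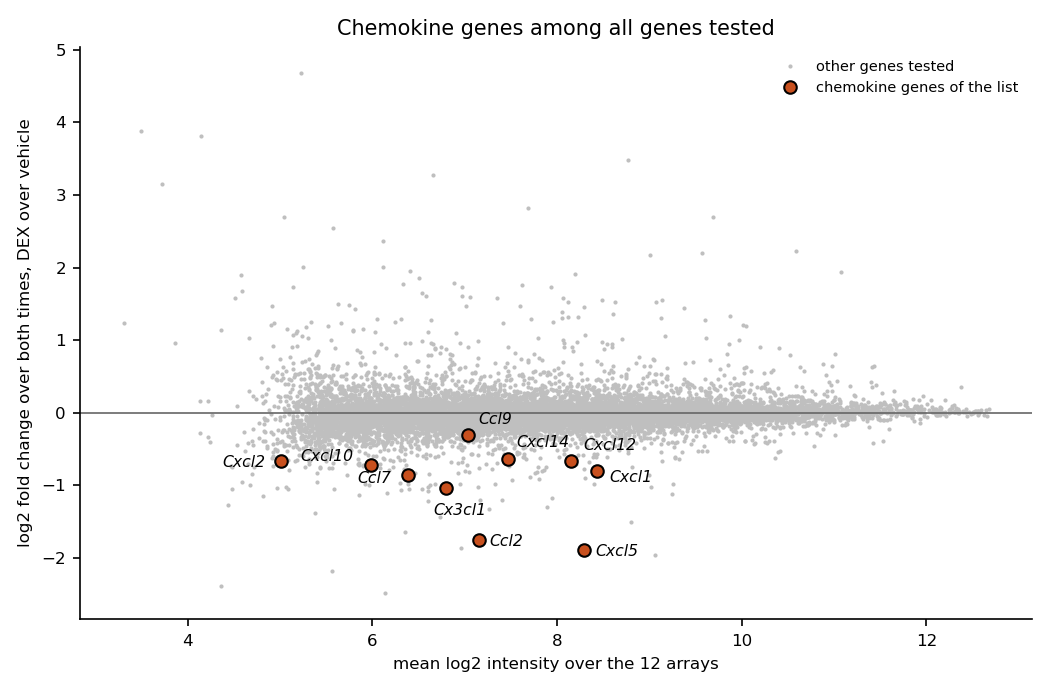
Log2 fold change of DEX over vehicle over both times (vertical axis) against mean log2 intensity over the 12 arrays, for the 11053 genes tested in grey and the 10 chemokine genes as filled circles. All 10 lie below 0, with Ccl2 and Cxcl5 at -1.75 and -1.89.

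After subtraction of each day's mean, the 10 genes correlated positively over the 12 arrays, and Pearson's r of their 45 pairs ran from 0.29 to 0.97, with a median of 0.74. Each day held both DEX and vehicle arrays, so that the DEX contrast stays in these values. Genes that are lower with DEX correlate through it alone. Values of r over other pairs of genes were not taken, and shared regulation was not tested. The 3 genes most like Cxcl5 over the 12 arrays were Adcy7, an adenylyl cyclase (r = 0.99), Sox11, a transcription factor (0.99), and Pde4b, a phosphodiesterase that breaks down cyclic AMP (0.98). Those most like Ccl2 were Cemip, a hyaluronan-binding protein (0.98), Irx3, a homeobox factor (0.98), and Cdyl2 (0.98). Ccl2 was itself among the 3 nearest of Ccl7 (0.94) and of Cx3cl1 (0.96), and Cxcl5 among those of Cxcl14 (0.97).

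Of 28 other chemokine ligands, 25 had a named probe set and 8 were tested, and none passed without a block. With the pairs as a block Cxcl3, a neutrophil attractant that lies between Pf4 and Cxcl15 in the chromosome 5 stretch, passed over both times (log2 fold change -1.64, SE 0.58, adjusted p = 0.540 without and 0.0332 with the block); it was chosen after its values were seen. With the block 1.47% of all genes were called lower over both times. Cxcl3 had 122, 137 and 32.9 in DEX replicates 1, 2 and 4 at 6 hrs, against 255, 331 and 106 in vehicle. At 24 hrs it had 24.2, 37.2 and 19.3 with DEX, against 178, 225 and 25.1 with vehicle. Its mean with DEX at 24 hrs, 26.9, lay under 50, so that background limits the size of its fold. The median of the 8 over both times was -0.19. Of 24 listed chemokine receptors 3 were tested (Ccr2, Ackr1 and Ackr3) and 0 passed, with or without the block. Ackr3 was well over the minimum in every group, with means of 862 to 1282. The signalling receptors that 7 of the 10 ligands are known to use stayed under 50, with a highest group mean of 21.3 for Ccr1, 9.08 for Cxcr2, 37.3 for Cxcr3, 14.9 for Cxcr4 and 17.2 for Cx3cr1.

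Of 12 tested genes that induce or relay inflammation, Il6 and Il11, cytokines of the gp130 family, were called lower over both times, where 0.217% of all genes were. Il6 averaged 8.16 at 6 hrs and 11.4 at 24 hrs with DEX, against 46.4 and 52.9 with vehicle (adjusted p = 0.0078 over both times), and it met the minimum only in vehicle at 24 hrs. Il11 averaged 40.03 and 26.0 with DEX, against 308 and 97.4 with vehicle (adjusted p = 0.0031). For both genes the DEX means lay under 50, so that no fold is given. Both were tested only through vehicle groups, in which they were high, so that their calls are no support for a fall. With the block Lif and Il1r1 passed as lower over both times as well, where 1.47% of all genes did. Of 10 tested genes that glucocorticoids are known to induce or that brake inflammation, Tsc22d3, Per1 and Fkbp5 rose at each time and over both. Of the 20897 tested probe sets, 156 were called in either direction over both times without the block, and 668 with it. At 6 hrs 47 were called without the block, and at 24 hrs 60. The share of all genes called higher was not counted. With the block Dusp1, a phosphatase of MAP kinases, and Zfp36, which marks cytokine and chemokine mRNAs for decay, also passed as higher, with log2 fold changes over both times of 0.52 and 0.57, and its relative Zfp36l1 passed as lower (-0.63). Nfkbia, the inhibitor of NF-kB, had 5 tested probe sets, and the one that stands for it, 1420088_at, had 0.42 (SE 0.17, adjusted p = 0.752, and 0.125 with the block). The sets 1438157_s_at, 1448306_at and 1449731_s_at were each higher with DEX in 6 of 6 pairs, with 0.70, 0.61 and 0.74 (adjusted p 0.0800 to 0.116 without and 0.0169 to 0.0445 with the block), and 1420089_at was higher in 4 of 6.

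Sums of macrophage and of osteoblast markers did not overlap between the groups at 24 hrs. At that time all DEX arrays lay below all vehicle arrays for 11% of all genes, and the share that lay above was not counted. A sum adds unlike probe sets, so that the brightest weigh most. The summed intensity of the 7 tested macrophage markers was 442 to 484 with DEX, against 511 to 644 with vehicle, and at 6 hrs it was 540 to 717, against 487 to 781. None of the 7 passed, without or with the block. With the block Flt1, an endothelial receptor, passed as higher at 24 hrs (log2 fold change 0.94). Cd34, on the perichondrial list, passed as lower at that time (-1.33), and both were named after their values were seen. At 24 hrs Flt1 averaged 27.3 with vehicle and Cd34 42.9 with DEX, both under 50, so that background limits the size of these folds. Neither stood for its list, of which no other marker passed. Of the 3 tested endothelial markers 2 were below 0 at 24 hrs (median -0.039), and of the 9 perichondrial ones 6 were (median -0.046). The part of macrophage, endothelial and perichondrial RNA in the 24 hrs values of the chemokines was not tested. The 9 chondrocyte markers summed to 26688 to 33812 with DEX at 24 hrs, against 23818 to 33870 with vehicle, and the 3 tested osteoblast markers to 2202 to 3430, against 1245 to 1809. Most of the osteoblast sum was Ibsp, with a mean of 2439 with DEX and 1290 with vehicle at 24 hrs. None of these 3 passed, without or with the block. The 9 tested perichondrial and tendon fibroblast markers summed to 4984 to 7662 with DEX at 24 hrs, against 5810 to 6916.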

How the data were processed

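RNA of primary chondrocyte cultures was measured on 12 mouse arrays, 1 per culture. The deposited values are linear intensities that the authors made by GC-RMA, which corrects background by probe base composition and normalizes across arrays, so that a floor of background stays in dim probe sets (its version is not given in the sources used here). The deposited experiment files hold text, from which only hybridization days, numbered 1 to 4, were taken. Replicates came from separate cell isolations per the methods, and p-values measure the spread among these arrays. The platform annotation gave 34958 probe sets 1 symbol, 932 several and 9211 none.

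Log2 values of the intensities, which were all above 0 and took no pseudocount, were fitted in limma 3.58.1 (R 4.3.3) with 1 mean per group over all 12 arrays and no block. A probe set was tested if any of the 4 group means reached 50, calls were at a Benjamini-Hochberg adjusted p under 0.05, and the tested set with the highest mean stood for a gene. All 10 members are named, from the other lists the genes past the threshold, and the 3 genes most like a member; Cxcl3, Lif, Il1r1, Dusp1, Zfp36, Zfp36l1, Nfkbia, Flt1 and Cd34 were named after their values were seen. Members, lists and tests were chosen with earlier results of these data known. Same-numbered DEX and vehicle arrays pair: their deviations from the group means correlated at 0.681, 0.632 and 0.863 at 6 hrs and at 0.158, 0.301 and 0.220 at 24 hrs, and each correlated best with its own number. Within-day differences were fitted where a day held 2 pairs and have no test where it held 1. Likeness of genes is Pearson's r of log2 values centred by day. Scripts were tested on simulated data. Tables and figures were made in Python 3.11.15 (pandas 2.3.3, matplotlib 3.10.9).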

Additional observations from a re-analysis of the deposited data

How the results depend on the processing

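Over both times 2 chemokine genes passed without a block. With the replicate block, which pairs DEX and vehicle arrays of 1 number, 7 passed, and with the hybridization day as a block 6. Of the 7, Cxcl2 was tested only through vehicle at 6 hrs. At 6 hrs the 1 gene became 4 with the replicate block and 4 with the day block, and 0 with no minimum intensity, with quantile normalization, with only the arrays compared, with the methods' Welch test at 5% FDR and without the arrays of day 3. At 24 hrs the 1 gene became 3 with the replicate block and 4 with the day block, and 0 with no minimum intensity and with the Welch test at 5% FDR. Leaving out 1 array gave 2 to 3 genes over both times, 0 to 1 at 6 hrs, 0 to 1 at 24 hrs and 0 to 3 between the vehicle cultures of 24 and 6 hrs. Leaving out day 3 was chosen after seeing the data.

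No DEX effect of the 10 genes over both times or at 6 hrs changed sign in the alternatives run. At 24 hrs the log2 fold change of Ccl9 was 0.011 and that of Cxcl10 0.069 within day 2, and leaving out 1 array gave -0.50 to 0.12 for Ccl9 and -0.75 to 0.11 for Cxcl10. The other changes of sign were in differences between times, which no call rests on. Between vehicle cultures (24 minus 6 hrs) the values without day 3 were 0.093 for Ccl2, 0.15 for Ccl9, 0.26 for Cxcl1, 0.16 for Cxcl2 and -0.52 for Cx3cl1. That of Ccl9 was also 0.00063 with 16 added before log2 and 0.64 with the mean of its probe sets, and that of Cx3cl1 was -0.036 with quantile normalization. Leaving out 1 array gave -0.36 to 0.12 for Ccl2, -0.40 to 0.23 for Ccl9 and -0.14 to 0.48 for Cx3cl1. For the DEX effect (24 minus 6 hrs) the mean of the probe sets gave -0.24 for Ccl9 and -0.086 for Cxcl12, and quantile normalization -0.021 for Cxcl12. Leaving out 1 array gave -0.16 to 0.47 for Ccl9, -0.54 to 0.56 for Cxcl1, -0.16 to 0.40 for Cxcl12, -0.50 to 0.065 for Cxcl14 and -0.074 to 0.54 for Cx3cl1. The cause of these changes was not tested. Of the single-gene values 974 were the same in direction and call, 29 gained a call, 28 lost a call and 37 changed sign. A further 7, with no test, moved by at least the spread of the pair differences. Values with no test, from days with 1 pair, count as the same where they moved by less. Day and time cannot be told apart, and Cxcl2, with means under 50 at 24 hrs, is limited by its signal over background. The same holds for Ccl7 with DEX at 6 hrs and for Cxcl10 with DEX at 24 hrs, whose means were also under 50.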
